A study of Homo sapiens with 12 samples.

Results

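The heat shock chaperones followed here are 10 genes: HSF1, HSPA1A, HSPA1B, HSPA8, HSPH1, DNAJB1, HSP90AA1, HSP90AB1, HSPB1 and HSPD1. They were taken by gene symbol from the expression tables, which list 58735 human genes. The rule reads no measured value, but the genes were listed with earlier results of these data known. RNA-seq was made on HEK293T, a line of human embryonic kidney origin with the SV40 large T antigen. Plasmids carried VGLL2-NCOA2, TEAD1-NCOA2 or YAP5SA, the empty vector pcDNA3.1 served as control, and each of the 4 groups had 3 libraries. VGLL2-NCOA2 and TEAD1-NCOA2 are gene fusions found in spindle cell rhabdomyosarcoma, and YAP5SA is a YAP whose LATS phosphorylation sites are mutated so that it stays active. All groups shared the line and the transfection, so the values describe short-term overexpression in 1 transformed line. Libraries were processed independently, but separate transfections are not described, so the p-values measure only the spread between libraries, which may be technical.

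HSF1 is the transcription factor of the heat shock response. In unstressed cells it is held inactive by chaperones, and on stress it forms trimers that bind heat shock elements, inverted repeats of GAA, upstream of chaperone genes. Its targets work in relays. HSP70 proteins (HSPA1A, HSPA1B, HSPA8) bind unfolded stretches, J-domain proteins such as DNAJB1 deliver the clients, and HSPH1 exchanges the nucleotide that releases them. HSP90 (HSP90AA1, HSP90AB1) finishes kinases and receptors, and HSPB1 holds unfolding proteins without ATP. HSPD1 is the HSP60 of the mitochondrial matrix and works with HSPE1, so the word cytosolic, under which these genes are often grouped, does not hold for it. HEK293T cells, like other transformed cells, keep high levels of several of these genes without heat.

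The upstream sequences that carry heat shock elements are shown first, since the levels of the genes that hold them are compared below. RefSeq upstream windows (GRCh38.p14, 250 bases before each start) were found for 9 of the 10 genes, 15 windows in all, and HSF1 had no window in that table. The element of 3 units, GAANNTTCNNGAA or TTCNNGAANNTTC on either strand, was present in 4 of the 15 windows, against 0.441% of 35116 windows of this length. The element of 2 units GAANNTTC, which lies inside the longer one, was present in 8 of the 15 windows, against 5.78% of all windows. Capitals mark the elements, and each sequence runs 5′ to 3′ on the strand of the gene.
HSPA1A, chr6:31815422-31815459, plus strand: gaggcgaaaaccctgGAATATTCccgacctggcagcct
HSPA1B, chr6:31827618-31827655, plus strand: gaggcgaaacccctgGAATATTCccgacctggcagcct
HSPA8, chr11:123062339-123062381, minus strand: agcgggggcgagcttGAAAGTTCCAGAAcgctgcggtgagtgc
HSPA8, chr11:123062164-123062206, minus strand: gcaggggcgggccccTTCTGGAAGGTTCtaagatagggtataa
DNAJB1, chr19:14518422-14518489, minus strand: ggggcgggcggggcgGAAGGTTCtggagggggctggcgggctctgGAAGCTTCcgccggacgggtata
HSP90AA1, chr14:102087105-102087147, minus strand: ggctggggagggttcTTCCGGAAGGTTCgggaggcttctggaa
HSP90AB1, chr6:44247763-44247805, plus strand: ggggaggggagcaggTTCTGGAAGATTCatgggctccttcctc
HSP90AB1, chr6:44247816-44247858, plus strand: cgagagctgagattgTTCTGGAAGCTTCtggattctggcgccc
HSPB1, chr7:76302476-76302513, plus strand: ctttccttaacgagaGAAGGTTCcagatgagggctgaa
HSPD1, chr2:197500053-197500090, minus strand: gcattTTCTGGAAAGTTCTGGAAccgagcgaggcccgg

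HSPA8, HSP90AA1, HSP90AB1 and HSPD1 held the element of 3 units, in HSPD1 as overlapping copies. HSPA1A, HSPA1B and HSPB1 held only the shorter one, at 106, 105 and 182 bases before the start. DNAJB1 also held only the shorter one, in 2 copies at 77 and 47 bases before the start. The window of HSPH1, on chr13:31162389-31162638 of the minus strand, held neither form. The TEAD motif GGAATG or CATTCC was in 0 of the 15 windows, against 11.9% of all windows. The TATA box TATAAA was in 2 windows, those of HSPA1A and HSPA1B, against 10.7%, and CCAAT was in 7, against 32.0%. The upstream 250 bases of HSPA1A and HSPA1B were 93.6% identical. A match is a description of the letters and says nothing of binding in these cells.

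Each library held 14140996 to 15559838 fragments in the 9 libraries whose FPKM (fragments scaled by gene length and library size) could be turned back into whole fragments. The YAP5SA libraries could not, with 22.5% to 28.2% of low values whole, so their depth is unknown. The targeted genes were highest in the groups given them. TEAD1 averaged 52.9 FPKM with TEAD1-NCOA2, but also 11.7 with VGLL2-NCOA2 and 13.3 with YAP5SA, against 3.23 in control. VGLL2 was at 54.4 FPKM and NCOA2 at 141 FPKM in YAP5SA library 3 (YAP5SA 3 below), while both genes were listed at 0 in the other 2 YAP5SA libraries. VGLL2-NCOA2 libraries averaged 257 and 613 FPKM for these genes. YAP5SA 3 also had the lowest mean correlation with its own group, 0.915, followed by control 3 at 0.947, so results that rest on them are given with and without them. The sum of FPKM was 253219 to 303968 in fusion libraries, 190861 to 252240 in YAP5SA libraries and 352968 to 450095 in control libraries, so levels per FPKM were not on 1 scale. The 6 HEK293T markers, KRT8, KRT18, VIM, NEFL, NEFM and PAX2, summed to 111 to 135.5 FPKM in fusion libraries, 50.5 to 88.5 in YAP5SA libraries and 290 to 363 in control libraries. Of the markers of other cells, PTPRC, CD3E, PECAM1, CDH5, VWF, DCN and SLC34A1 reached at most 0.116 FPKM and COL1A2 was at 0, while COL1A1 reached 10.4 FPKM, LRP2 reached 3.75, CD14 reached 1.41 and AQP1 reached 0.847.

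The 10 genes differed widely in level, here per kilobase of gene. In control libraries HSP90AB1 averaged 709.7 FPKM, followed by HSPD1 (277), HSP90AA1 (252), HSPA8 (148), HSPB1 (92.2), HSPA1B (52.1), HSF1 (39.9), DNAJB1 (19.8), HSPH1 (10.3) and HSPA1A (3.43). Among neighbours in that order, HSPD1 and HSP90AA1 overlapped across libraries, and the others did not. HSP90AB1 led and HSPA1A was lowest in the other groups too. In VGLL2-NCOA2 libraries, only HSF1 and HSPH1 overlapped among neighbours. Together the 10 genes took 0.526% to 0.535% of the FPKM sum in VGLL2-NCOA2 libraries, 0.483% to 0.498% in TEAD1-NCOA2 libraries, 0.402% to 0.442% in YAP5SA libraries and 0.364% to 0.471% in control libraries.

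**Figure D1:**
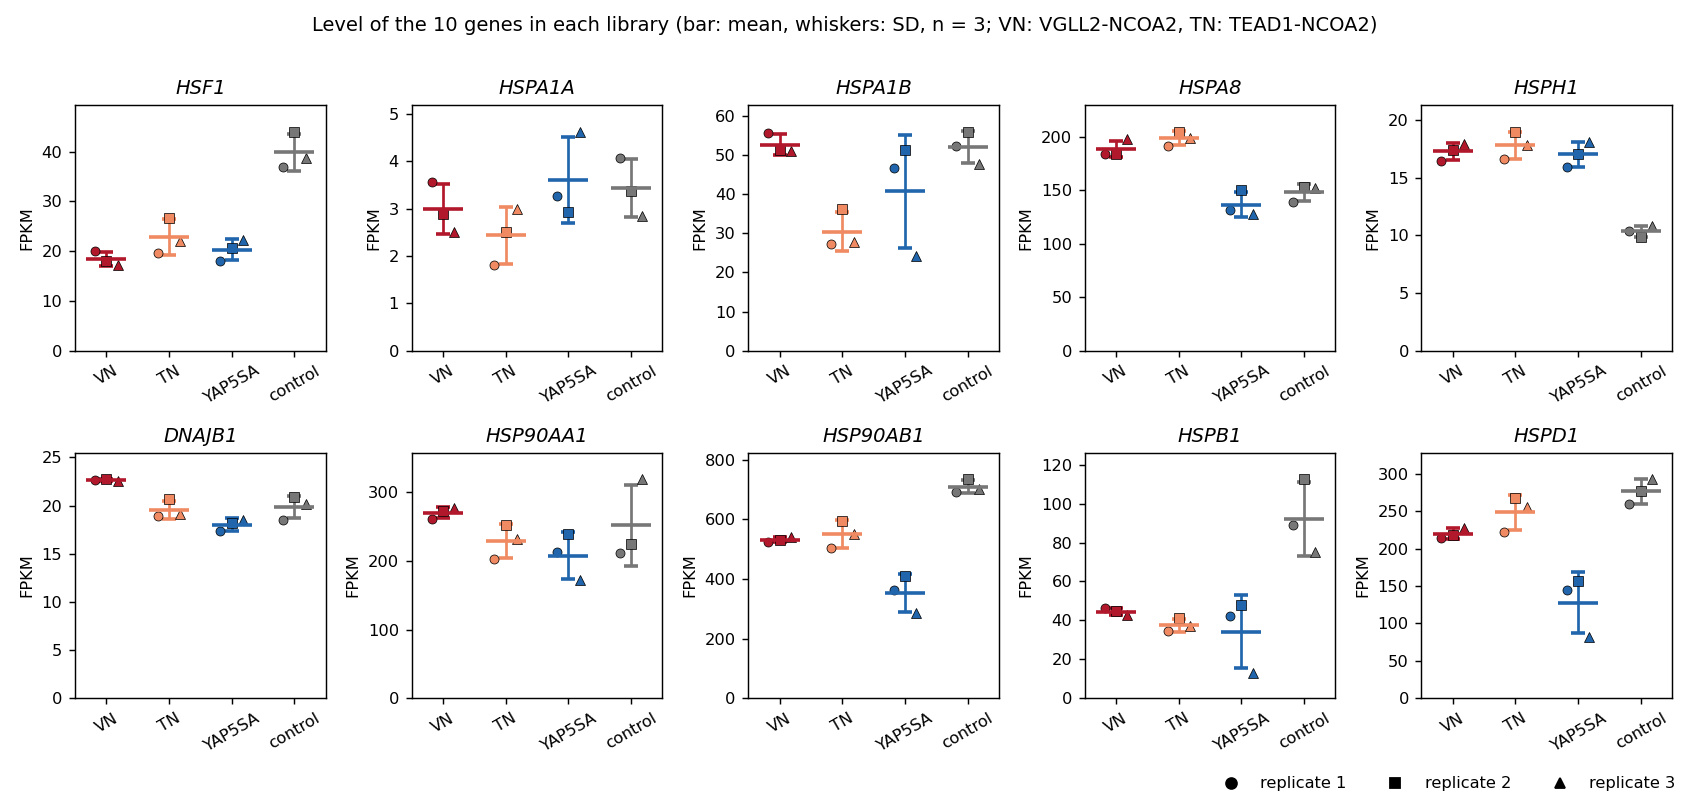
Level of each gene in FPKM (vertical axes, each starting at 0) in every library of the VGLL2-NCOA2 (VN), TEAD1-NCOA2 (TN), YAP5SA and control groups. Points are libraries, bars the mean and whiskers the SD of 3 libraries. HSF1 and HSPB1 sit lower in the 3 plasmid groups than in control, HSPH1 sits higher, and YAP5SA library 3 lies apart at 12.99 FPKM for HSPB1 and 81.9 FPKM for HSPD1.

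Against control, HSF1 and HSPB1 fell with all 3 plasmids, HSPH1 rose with all 3, HSPA8 rose with the fusions, and HSP90AB1 and HSPD1 were at their lowest with YAP5SA. Differences were tested with limma on log2(FPKM + 1) across 15954 genes, with p-values adjusted by Benjamini-Hochberg over all of them. A gene passed at an adjusted p under 0.05 and was called if its log2 difference was also over 1 in either direction. Adding 1 before the logarithm shrinks the change of low genes such as HSPA1A. The comparisons share the control libraries, so a control library that is high or low moves all 3 alike.

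With VGLL2-NCOA2, 6 of the 10 genes passed, 3 higher and 3 lower, where 53.8% of all genes passed (28.9% higher, 25.0% lower). HSF1 and HSPB1 were called lower, where 11.3% of all genes were called and 5.03% were called lower. The median difference of the 10 was -0.07, against 0.01 over all genes. With TEAD1-NCOA2, 5 passed, 2 higher and 3 lower, where 48.5% of all genes passed (20.6% higher, 27.9% lower). HSPB1 alone was called, and lower, where 9.4% of all genes were called and 6.51% were called lower. The median was -0.26, against -0.09 over all genes. With YAP5SA, 5 passed, 1 higher and 4 lower, where 63.1% of all genes passed (32.9% higher, 30.2% lower). HSP90AB1, HSPB1 and HSPD1 were called lower, where 20.5% were called and 10.0% were called lower, and the median was -0.34, against 0.03 over all genes. The shares that passed were near the background in each comparison, so these counts do not set the 10 genes apart from the rest.

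**Figure D2:**
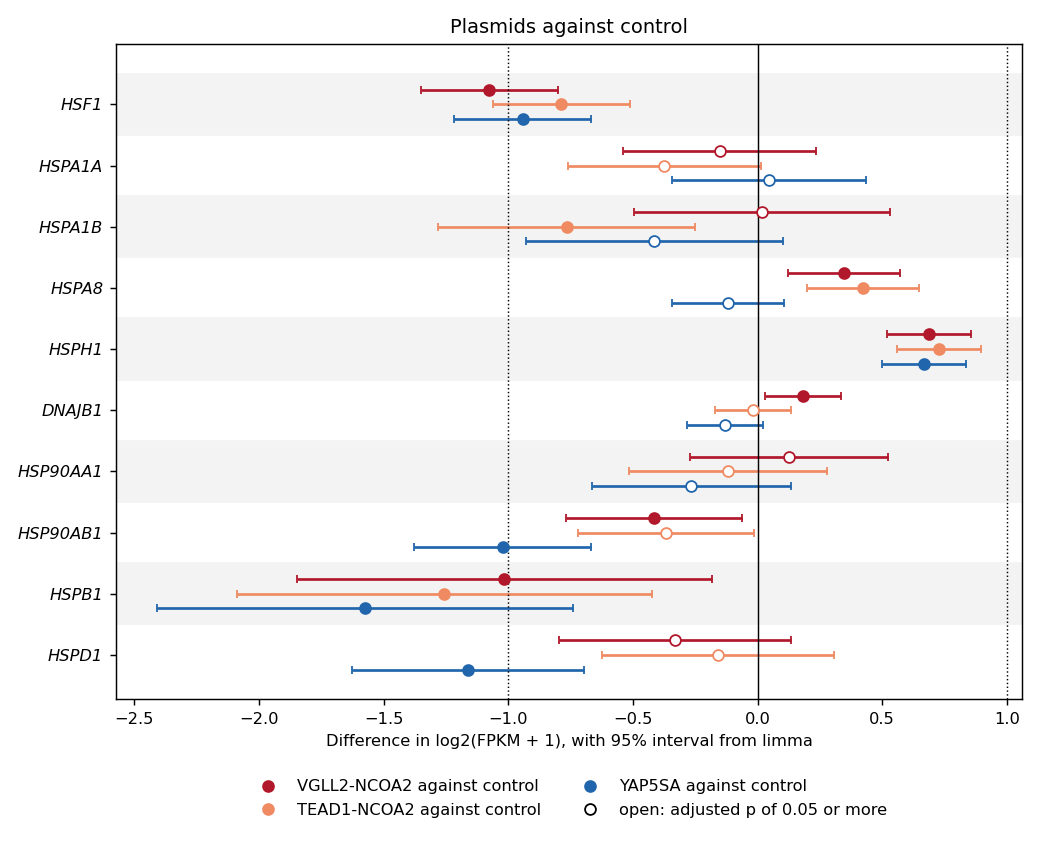
Difference from control in log2(FPKM + 1) (horizontal axis) for each gene and plasmid, as points with 95% intervals from limma, filled where the adjusted p was under 0.05. Dotted lines mark a log2 difference of 1 in either direction. HSPH1 lies between 0.67 and 0.73 in all 3 comparisons, and HSPB1 has the widest intervals.

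HSF1 (ENSG00000185122, GRCh38 chr8:144291591-144314722, plus strand) was at 20.004, 17.96 and 17.2 FPKM in VGLL2-NCOA2 libraries, 19.6, 26.8 and 22.1 in TEAD1-NCOA2 libraries, 18.04, 20.7 and 22.2 in YAP5SA libraries and 37.0, 44.1 and 38.6 in control libraries. Every plasmid library lay below every control library. The means were 18.4 ± 1.44, 22.8 ± 3.66 and 20.3 ± 2.11 FPKM with VGLL2-NCOA2, TEAD1-NCOA2 and YAP5SA, against 39.9 ± 3.70 FPKM in control (SD, n = 3 each). HSF1 fell by 1.08 ± 0.12 on the log2 scale (SE) with VGLL2-NCOA2 (limma, adjusted p = 6.6e-05), by 0.79 with TEAD1-NCOA2 (adjusted p = 0.000497) and by 0.94 with YAP5SA (adjusted p = 8.4e-05). These are 0.461, 0.572 and 0.509 times control. Only the VGLL2-NCOA2 difference was over 1, and the YAP5SA difference was -1.01 without YAP5SA 3. Rescaled to TPM, the differences were -0.50, -0.29 and -0.16, and those of TEAD1-NCOA2 (adjusted p = 0.128) and YAP5SA (adjusted p = 0.352) no longer passed. HSF1 messenger RNA is a level of transcript, and the activity of the protein, which is set largely after translation, was not measured.

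Of the HSP70 genes, HSPA8 (ENSG00000109971, chr11:123057489-123063230, minus strand) makes the constitutive HSC70. It was at 184, 185 and 198 FPKM in VGLL2-NCOA2 libraries, 192, 205 and 199 in TEAD1-NCOA2 libraries, 132, 150.2 and 128 in YAP5SA libraries and 139, 153 and 152 in control libraries. The fusion libraries all lay above the control libraries, while YAP5SA and control overlapped. HSPA8 rose by 0.35 ± 0.10 with VGLL2-NCOA2 (1.27 times control, limma adjusted p = 0.0145) and by 0.42 ± 0.10 with TEAD1-NCOA2 (1.34 times, adjusted p = 0.00593). With YAP5SA the difference was -0.12 (95% interval -0.34 to 0.11, adjusted p = 0.328), and it was 0.69 on the TPM scale and 0.86 after quantile normalization, both passing. The rise with VGLL2-NCOA2 missed the threshold without VGLL2-NCOA2 3 or control 1, at adjusted p of 0.0521 and 0.0604.

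The stress-inducible HSP70 has a pair of near-identical genes next to each other on chromosome 6, HSPA1A (ENSG00000204389, chr6:31815464-31817946, plus strand) and HSPA1B (ENSG00000204388, chr6:31827735-31830255, plus strand). Of the 150-base stretches of the HSPA1A transcript, 67.1% were also in HSPA1B, so fragments may have been split between the pair and each value alone is uncertain. HSPA1A was at 3.56, 2.90 and 2.51 FPKM in VGLL2-NCOA2 libraries, 1.80, 2.51 and 2.99 in TEAD1-NCOA2 libraries, 3.27, 2.92 and 4.63 in YAP5SA libraries and 4.07, 3.38 and 2.85 in control libraries. It rested on 70 to 138 fragments a library, and its groups overlapped. The log2 differences from control were -0.15 (95% interval -0.54 to 0.24), -0.37 (-0.76 to 0.01) and 0.05 (-0.34 to 0.44) with VGLL2-NCOA2, TEAD1-NCOA2 and YAP5SA, and none passed. With YAP5SA it was 0.80 on the TPM scale and 0.61 after the length and GC correction, and passed in both.

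HSPA1B was at 55.7, 51.3 and 51.1 FPKM in VGLL2-NCOA2 libraries, 27.3, 36.1 and 27.8 in TEAD1-NCOA2 libraries, 46.7, 51.3 and 24.2 in YAP5SA libraries and 52.5, 56.1 and 47.8 in control libraries. The TEAD1-NCOA2 libraries lay below every VGLL2-NCOA2 and control library, and among YAP5SA libraries only library 3 was that low. HSPA1B fell by 0.77 ± 0.23 with TEAD1-NCOA2 (limma, adjusted p = 0.0191), to 0.584 times control. It no longer passed without TEAD1-NCOA2 1, TEAD1-NCOA2 3 or control 2, at adjusted p between 0.0599 and 0.0668. Nor did it pass on the TPM scale (-0.27, adjusted p = 0.192), after quantile normalization (-0.38, adjusted p = 0.142) or after the length and GC correction (-0.30, adjusted p = 0.239). With VGLL2-NCOA2 the difference was 0.02 (-0.50 to 0.53), and on the TPM scale it was 0.63 (adjusted p = 0.00558). With YAP5SA it was -0.41 (-0.93 to 0.10), and -0.08 without YAP5SA 3. Without YAP5SA 2 it was -0.61 and passed (adjusted p = 0.0431).

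Since the pair could not be separated with certainty, their sum was compared too. Together HSPA1A and HSPA1B averaged 56.1 ± 3.13 FPKM with VGLL2-NCOA2, 33.1 ± 5.13 FPKM with TEAD1-NCOA2, 44.6 ± 13.7 FPKM with YAP5SA and 55.9 ± 4.53 FPKM in control (SD, n = 3 each). The TEAD1-NCOA2 sum was 22.8 FPKM lower than that of control, and its libraries did not overlap those of control (exact permutation test, 2-sided, p = 0.1, the smallest that 3 against 3 allows, and 0.3 after Benjamini-Hochberg over 6 comparisons). The limma fit gave the merged row a log2 difference of -0.75 (adjusted p = 0.0116) with TEAD1-NCOA2 and 0.01 (adjusted p = 0.984) with VGLL2-NCOA2. In TPM the sum averaged 217 ± 14.2 (VGLL2-NCOA2), 119 ± 7.97 (TEAD1-NCOA2) and 193 ± 36.0 (YAP5SA), against 141 ± 7.13 in control (SD, n = 3 each). Differences from control there were 75.6, -22.2 and 52.2 TPM with the 3 plasmids in that order (exact permutation p = 0.1 each, 0.12 after adjustment).

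HSPH1 (ENSG00000120694, chr13:31134974-31162388, minus strand), the HSP110 that exchanges nucleotide on HSP70, was the member that rose with every plasmid on the FPKM scale. On the TPM scale HSPA8 and DNAJB1 also passed higher with every plasmid. It was at 16.5, 17.4 and 17.96 FPKM in VGLL2-NCOA2 libraries, 16.6, 19.0 and 17.8 in TEAD1-NCOA2 libraries, 15.9, 17.1 and 18.1 in YAP5SA libraries and 10.4, 9.86 and 10.8 in control libraries. No plasmid library came down to the highest control library. HSPH1 rose by 0.69 ± 0.08 (adjusted p = 5.2e-05), 0.73 ± 0.08 (4.3e-05) and 0.67 ± 0.08 (3.2e-05) on the log2 scale with VGLL2-NCOA2, TEAD1-NCOA2 and YAP5SA, or 1.67, 1.72 and 1.65 times control. It passed under all 4 scalings, from 0.27 to 0.32 after correction for gene length and GC content, to 1.27 to 1.49 on the TPM scale. Its gene model is the longest of the 10, at 8390 bases, and has the lowest GC content, 39.95%. Across 12016 protein-coding genes, the differences from control rose with length (Spearman's rho 0.484, 0.470 and 0.442 with VGLL2-NCOA2, TEAD1-NCOA2 and YAP5SA) and fell with GC content (rho -0.478, -0.496 and -0.336). These correlations are across genes, which share libraries and are not independent.

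DNAJB1 (ENSG00000132002, chr19:14514770-14529770, minus strand), the HSP40 that delivers clients to HSP70, was at 22.6, 22.8 and 22.5 FPKM in VGLL2-NCOA2 libraries, 18.9, 20.6 and 19.1 in TEAD1-NCOA2 libraries, 17.3, 18.2 and 18.5 in YAP5SA libraries and 18.5, 20.8 and 20.2 in control libraries. It rose by 0.18 ± 0.07 with VGLL2-NCOA2 (limma, adjusted p = 0.0446), 1.14 times control. It no longer passed when any 1 of 8 libraries was left out (VGLL2-NCOA2 1, 2 or 3, TEAD1-NCOA2 1 or 3, YAP5SA 2, control 1 or 3), at adjusted p from 0.0553 to 0.138. The differences were -0.02 (95% interval -0.17 to 0.13) with TEAD1-NCOA2 and -0.13 (-0.28 to 0.02) with YAP5SA. On the TPM scale they were 0.49 and 0.66, and after the length and GC correction 0.19 and 0.16, all passing, so their direction depends on the scaling.

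Of the HSP90 genes, the inducible HSP90AA1 (ENSG00000080824, chr14:102080738-102139699, minus strand) was at 261, 273 and 277 FPKM in VGLL2-NCOA2 libraries, 203, 252 and 232 in TEAD1-NCOA2 libraries, 213, 239 and 172 in YAP5SA libraries and 211, 225 and 319.7 in control libraries. Control 3 was the highest of the 12 libraries, and each plasmid group overlapped control. No difference from control passed: 0.13 (95% interval -0.27 to 0.52) with VGLL2-NCOA2, -0.12 (-0.52 to 0.28) with TEAD1-NCOA2 and -0.27 (-0.66 to 0.13) with YAP5SA. Without control 3 the VGLL2-NCOA2 difference was 0.31, and with YAP5SA 3 left out as well it passed. On the TPM scale HSP90AA1 was higher with VGLL2-NCOA2 (0.74, adjusted p = 0.00448) and YAP5SA (0.54, adjusted p = 0.0185). The median over all genes there was 0.57 and 0.77, so the YAP5SA value lay below it.

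The constitutive HSP90AB1 (ENSG00000096384, chr6:44246166-44253888, plus strand) was the most abundant member. It was at 525, 531 and 540.4 FPKM in VGLL2-NCOA2 libraries, 504, 596 and 552 in TEAD1-NCOA2 libraries, 363, 409.6 and 285 in YAP5SA libraries and 692, 736 and 701 in control libraries. Every plasmid library lay below every control library, and the YAP5SA libraries lay below those of the fusions. HSP90AB1 fell by 1.02 ± 0.16 with YAP5SA (0.497 times control, limma adjusted p = 0.000261), and by 0.88 without YAP5SA 3, which ends the call at a log2 of 1 while the gene still passed. Leaving out control 2 also brought it just inside 1 (adjusted p = 0.00145). It fell by 0.41 ± 0.16 with VGLL2-NCOA2 (adjusted p = 0.0481), and no longer passed when any of 10 libraries was left out, all but YAP5SA 2 and 3, at adjusted p from 0.0564 to 0.117, or after the length and GC correction (-0.18, adjusted p = 0.301). With TEAD1-NCOA2 the difference was -0.37 (95% interval -0.72 to -0.02, adjusted p = 0.0793), and it passed without YAP5SA 3 (adjusted p = 0.00789). Its direction flipped for both fusions on the TPM scale (0.20 and 0.15) and for all 3 plasmids after quantile normalization (0.58, 0.20 and 0.22), of which VGLL2-NCOA2 passed after quantile normalization. The YAP5SA fall was -0.21 and no longer passed on the TPM scale (adjusted p = 0.0836), nor after quantile normalization (adjusted p = 0.324).

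HSPB1 (ENSG00000106211, chr7:76302544-76304295, plus strand), the small heat shock protein HSP27, was at 46.3, 44.6 and 42.5 FPKM in VGLL2-NCOA2 libraries, 34.6, 41.1 and 37.1 in TEAD1-NCOA2 libraries, 42.0, 47.7 and 12.99 in YAP5SA libraries and 88.8, 113 and 75.0 in control libraries. No plasmid library reached the lowest control library. Against control it fell by 1.02 ± 0.38 with VGLL2-NCOA2 (limma, adjusted p = 0.0416), by 1.26 ± 0.38 with TEAD1-NCOA2 (adjusted p = 0.0181) and by 1.58 ± 0.38 with YAP5SA (adjusted p = 0.00393), or 0.483, 0.408 and 0.372 times control. Without YAP5SA 3 the YAP5SA difference was -1.01 and was still called. The VGLL2-NCOA2 call was lost when any 1 of the 6 fusion libraries, control 1 or control 2 was left out (adjusted p from 0.0551 to 0.127), and that of TEAD1-NCOA2 without TEAD1-NCOA2 1 or control 2 (0.0566 and 0.0651). Under the other scalings the differences stayed negative, from -0.42 to -1.01, and passed only for YAP5SA. HSPB1 has a GC content of 64.3% and HSF1 of 64.7%, where 48.6% is the median of the tested protein-coding genes. After the length and GC correction HSPB1 was at -0.44, -0.67 and -1.01 with VGLL2-NCOA2, TEAD1-NCOA2 and YAP5SA, and HSF1 at -0.65, -0.35 and -0.56, still passing with each.

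HSPD1 (ENSG00000144381, chr2:197486581-197516737, minus strand), the mitochondrial HSP60, was at 214, 218 and 228 FPKM in VGLL2-NCOA2 libraries, 223, 267 and 256 in TEAD1-NCOA2 libraries, 145, 157 and 81.9 in YAP5SA libraries and 260.0, 278 and 293 in control libraries. The YAP5SA libraries lay below all others, and the VGLL2-NCOA2 libraries lay below control. HSPD1 fell by 1.16 ± 0.21 with YAP5SA (0.462 times control, limma adjusted p = 0.000696), and by 0.87 without YAP5SA 3, which takes it below the log2 of 1 while it still passed. With VGLL2-NCOA2 the difference was -0.33 (95% interval -0.80 to 0.13), and it passed without YAP5SA 3 (adjusted p = 0.00912). With TEAD1-NCOA2 it was -0.16 (-0.62 to 0.31). Both fusion differences turned positive on the TPM scale (0.28 and 0.36) and after quantile normalization (0.43 and 0.40, both passing), while that of YAP5SA was -0.36 and -0.16 there and did not pass. Mitochondrially encoded genes took 6.18% to 9.83% of FPKM in fusion libraries, 3.60% to 4.64% in YAP5SA libraries and 9.97% to 12.6% in control libraries, and their part in the HSPD1 values was not tested.

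**Figure D3:**
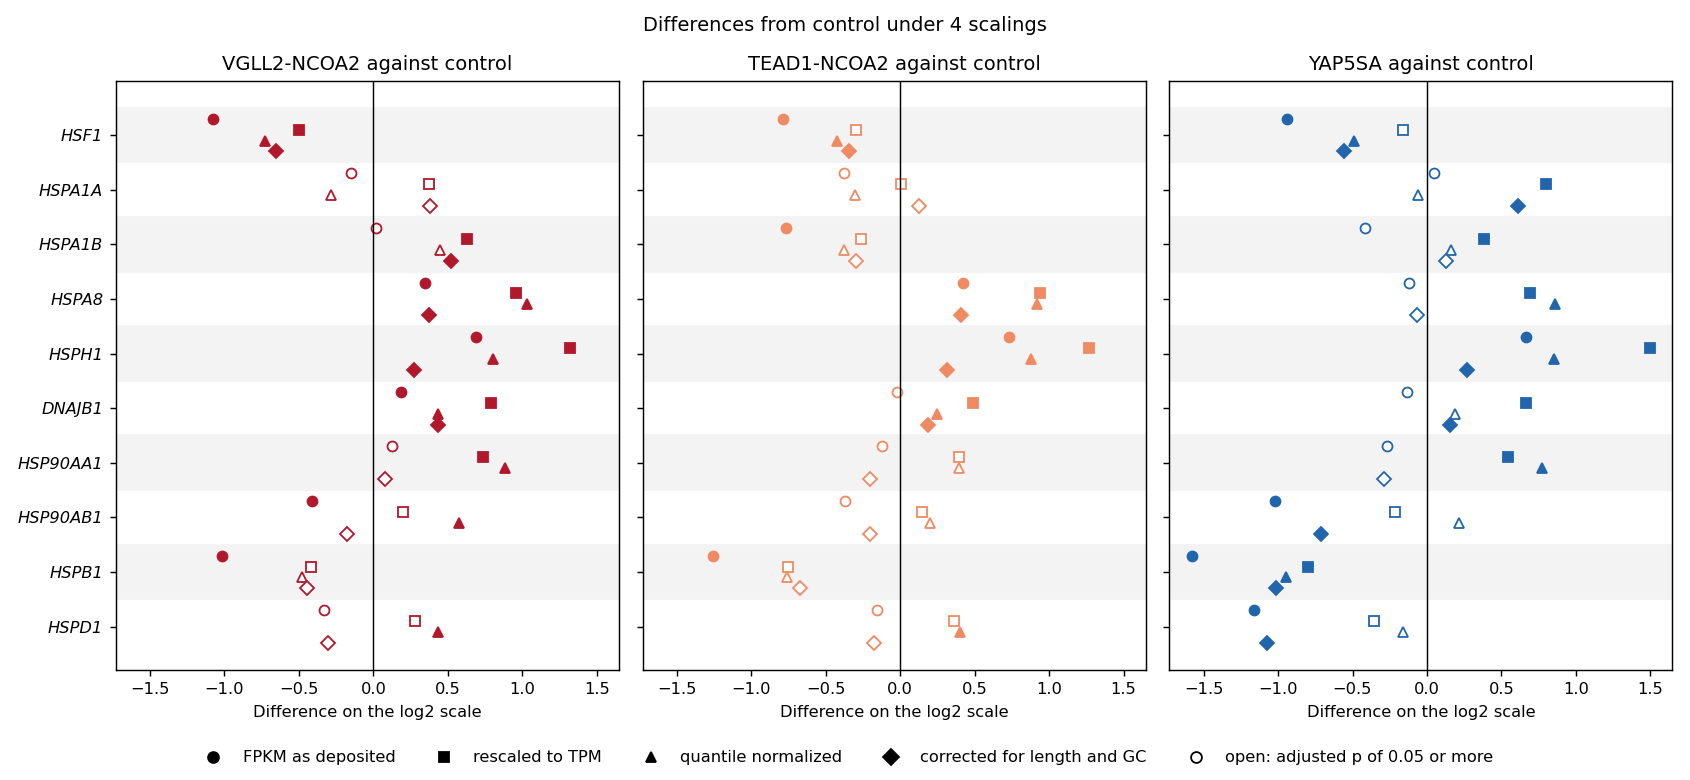
Differences from control on the log2 scale (horizontal axes) for each gene and plasmid under 4 scalings of the same tables, marked by symbol and filled where the adjusted p was under 0.05. HSPH1 is right of 0 and HSF1 and HSPB1 are left of 0 under each scaling. Among those that change sides are HSPD1 with the fusions and DNAJB1 with TEAD1-NCOA2 and YAP5SA. HSP90AB1 with each plasmid, and HSPA8, HSP90AA1 and HSPA1B with YAP5SA, change sides too.

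The scaling moved all genes, not only these 10. On the TPM scale the median difference over all genes against control was 0.57 (VGLL2-NCOA2), 0.35 (TEAD1-NCOA2) and 0.77 (YAP5SA), and relative to those shifts HSPH1 remained higher and HSF1 and HSPB1 remained lower with each plasmid. HSPA8 was higher with both fusions under each scaling, and above the shifted median on the TPM scale (0.96 and 0.94). With YAP5SA, the TPM differences of HSPA8 (0.69), DNAJB1 (0.66), HSP90AA1 (0.54) and HSPA1B (0.38) were positive but below the shifted median. All these values are scaled within each library, so they measure neither the number of cells nor the amount of RNA per cell.

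The plasmids were also compared with each other. VGLL2-NCOA2 and TEAD1-NCOA2 differed in 1 of the 10 genes, where 19.9% of all genes passed (15.3% higher) and 1.97% were called. HSPA1B was 1.73 times as high with VGLL2-NCOA2 as with TEAD1-NCOA2 (log2 difference 0.78 ± 0.23, limma adjusted p = 0.0382) and stayed higher under each scaling (0.82 to 0.89), but it no longer passed without any 1 of the 6 fusion libraries or control 1, at adjusted p from 0.0517 to 0.118. DNAJB1 was at 0.20 ± 0.07 (95% interval 0.05 to 0.35, adjusted p = 0.0651), with no overlap between the fusions, and it passed without YAP5SA 3 (adjusted p = 0.0357). HSPH1 (-0.04, interval -0.21 to 0.13) and HSPA8 (-0.07, -0.30 to 0.15) had the intervals nearest 0.

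Against YAP5SA, VGLL2-NCOA2 libraries were higher in 4 of the 10 genes, where 31.4% of all genes passed (16.0% higher) and 4.09% were called. These were HSPA8 (0.47 ± 0.10, adjusted p = 0.00597), DNAJB1 (0.31 ± 0.07, 0.00622), HSP90AB1 (0.61 ± 0.16, 0.0149) and HSPD1 (0.83 ± 0.21, 0.0124), and none was over 1. Without YAP5SA 3 they were 0.42, 0.33, 0.46 and 0.54 and still passed. HSP90AB1 missed the threshold without VGLL2-NCOA2 2 or 3 (adjusted p between 0.0503 and 0.0537), and HSPD1 reached 1.01 and was called without YAP5SA 2. On the TPM scale, where all genes had a median of -0.17, only HSP90AB1 (0.41) and HSPD1 (0.64) passed. HSPB1 was 0.56 (95% interval -0.27 to 1.39), and -0.01 without YAP5SA 3.

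TEAD1-NCOA2 libraries were higher than YAP5SA libraries in 3 of the 10 genes, where 40.5% of all genes passed (14.0% higher) and 5.9% were called (1.72% higher). HSPD1 was called, at 1.004 ± 0.21 and 1.94 times as high (limma, adjusted p = 0.00367). It fell inside a log2 of 1 without TEAD1-NCOA2 2, TEAD1-NCOA2 3 or YAP5SA 3 (0.71 without the last) and still passed. HSPA8 was 0.54 ± 0.10 higher (adjusted p = 0.00204) and HSP90AB1 0.65 ± 0.16 higher (adjusted p = 0.00837), with values of 0.50 and 0.51 without YAP5SA 3. HSP90AB1 was at -0.02 after quantile normalization, and HSPA8 was at 0.25 on the TPM scale and 0.06 after quantile normalization, not passing. HSPA1B was at -0.35 (95% interval -0.87 to 0.16), and at -0.68 without YAP5SA 3, where it passed (adjusted p = 0.00191). HSPA1A was at -0.42 (-0.81 to -0.03, adjusted p = 0.0793).

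**Figure D4:**
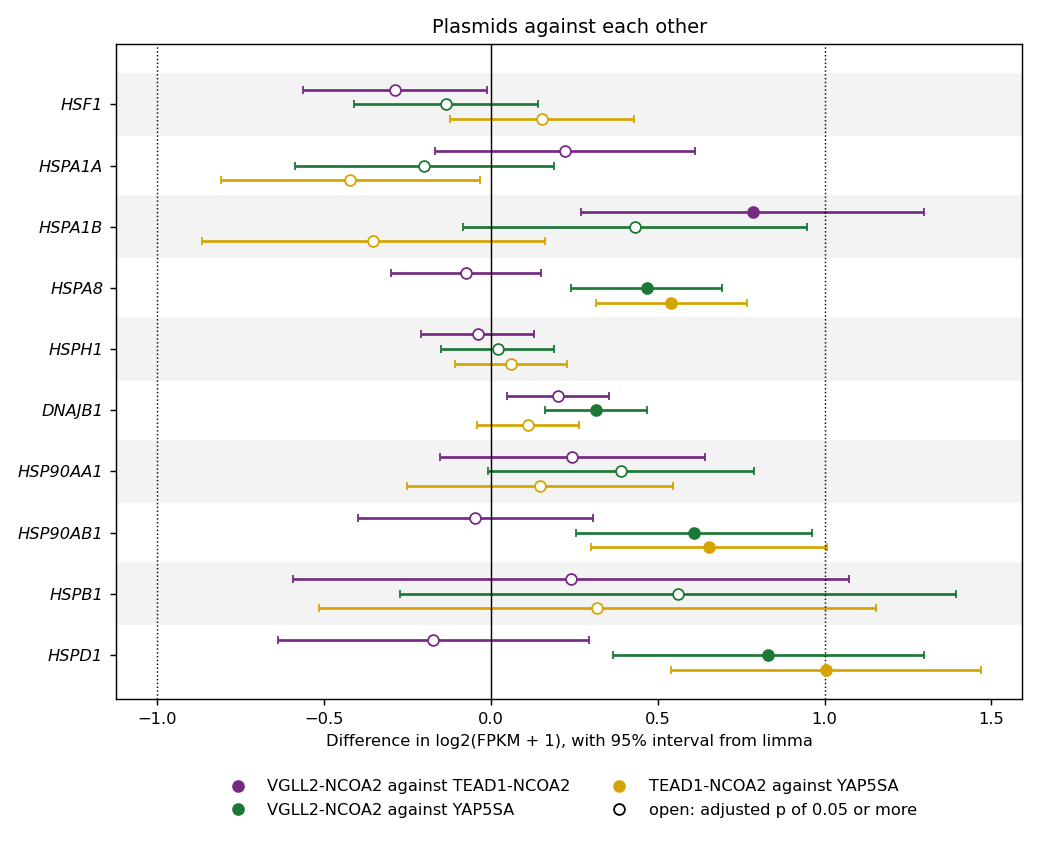
Differences between plasmids in log2(FPKM + 1) (horizontal axis) with 95% intervals from limma, filled where the adjusted p was under 0.05. HSPA8, HSP90AB1 and HSPD1 lie right of 0 for both fusions over YAP5SA, between 0.47 and 1.004, and HSPA1B is the only filled point between the fusions, at 0.78.

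Within a library a scale shared by all genes cancels, while effects that follow gene length or GC content do not. Ratios of members were read as well, chosen after the values were seen. HSPA8 was 3.38 times HSPA1A and HSPA1B together with VGLL2-NCOA2, 6.09 times with TEAD1-NCOA2, 3.26 times with YAP5SA and 2.66 times in control. Relative to HSPH1, it was 10.9, 11.2 and 8.04 times as high with VGLL2-NCOA2, TEAD1-NCOA2 and YAP5SA, against 14.3 times in control. No plasmid group overlapped control in that ratio. HSP90AB1 was 1.97, 2.41 and 1.69 times HSP90AA1 with VGLL2-NCOA2, TEAD1-NCOA2 and YAP5SA, against 3.28, 3.26 and 2.19 times in control libraries 1, 2 and 3. HSPD1 was 5.90, 6.44 and 18.9 times its partner HSPE1 in the YAP5SA libraries, with library 3 apart. Over 24 exact permutation tests of 4 ratios no p was below 0.1, the smallest that 3 against 3 allows, or 0.16 after Benjamini-Hochberg.

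The wider chaperone machinery was followed in lists of related genes, whose counts are read against the shares over all genes. Against control, 28.9% (VGLL2-NCOA2), 20.6% (TEAD1-NCOA2) and 32.9% (YAP5SA) of all genes passed higher and 25.0%, 27.9% and 30.2% passed lower. In TPM these were 51.8%, 38.5% and 60.5% higher and 6.03%, 9.39% and 8.07% lower. Of the HSP90 cochaperones, 15 of 16 were tested, and 8 fell and 1 rose with VGLL2-NCOA2, 13 fell and 0 rose with TEAD1-NCOA2, and 13 fell and 1 rose with YAP5SA. Their median differences were -0.36, -0.56 and -0.67, against 0.01, -0.09 and 0.03 over all genes. NUDC averaged 31.4 FPKM with YAP5SA, against 70.7 FPKM in control (-1.16). Of the HSP90 cochaperones in TPM, 7, 1 and 3 passed higher and 1 lower with each plasmid, and their medians of 0.25, -0.04 and 0.13 were below those of all genes there (0.57, 0.35 and 0.77). After the length and GC correction 8, 9 and 10 passed lower and 1, 0 and 0 higher.

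The 14 tested subunits of TRiC, the cytosolic chaperonin for actin and tubulin, and prefoldin held 6, 8 and 10 genes that fell with VGLL2-NCOA2, TEAD1-NCOA2 and YAP5SA, and 0 that rose. Rescaled to TPM, 4, 2 and 4 passed higher and 0 lower, with medians of 0.20, 0.05 and 0.22, again below those of all genes, and after the length and GC correction 7, 7 and 8 passed lower and 0 higher. CCT3 averaged 172, 201 and 174 FPKM with VGLL2-NCOA2, TEAD1-NCOA2 and YAP5SA, against 291 FPKM in control, and CCT4 averaged 152, 161 and 146, against 285. Among mitochondrial chaperones and proteases, 5 of 11 fell and 1 rose with VGLL2-NCOA2, 5 fell and 0 rose with TEAD1-NCOA2, and 7 fell and 1 rose with YAP5SA. TRAP1, the mitochondrial HSP90, averaged 46.1, 42.9 and 31.4 FPKM with the 3 plasmids, against 87.2 FPKM in control (-0.90, -1.01 and -1.45), and passed lower on the TPM scale too, where the list as a whole had 5, 4 and 4 higher and 3, 3 and 4 lower. LONP1, a matrix protease, averaged 27.05 FPKM with YAP5SA, against 78.8 FPKM in control (-1.51), and CLPP averaged 28.7, against 74.1 (-1.35).

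**Figure D5:**
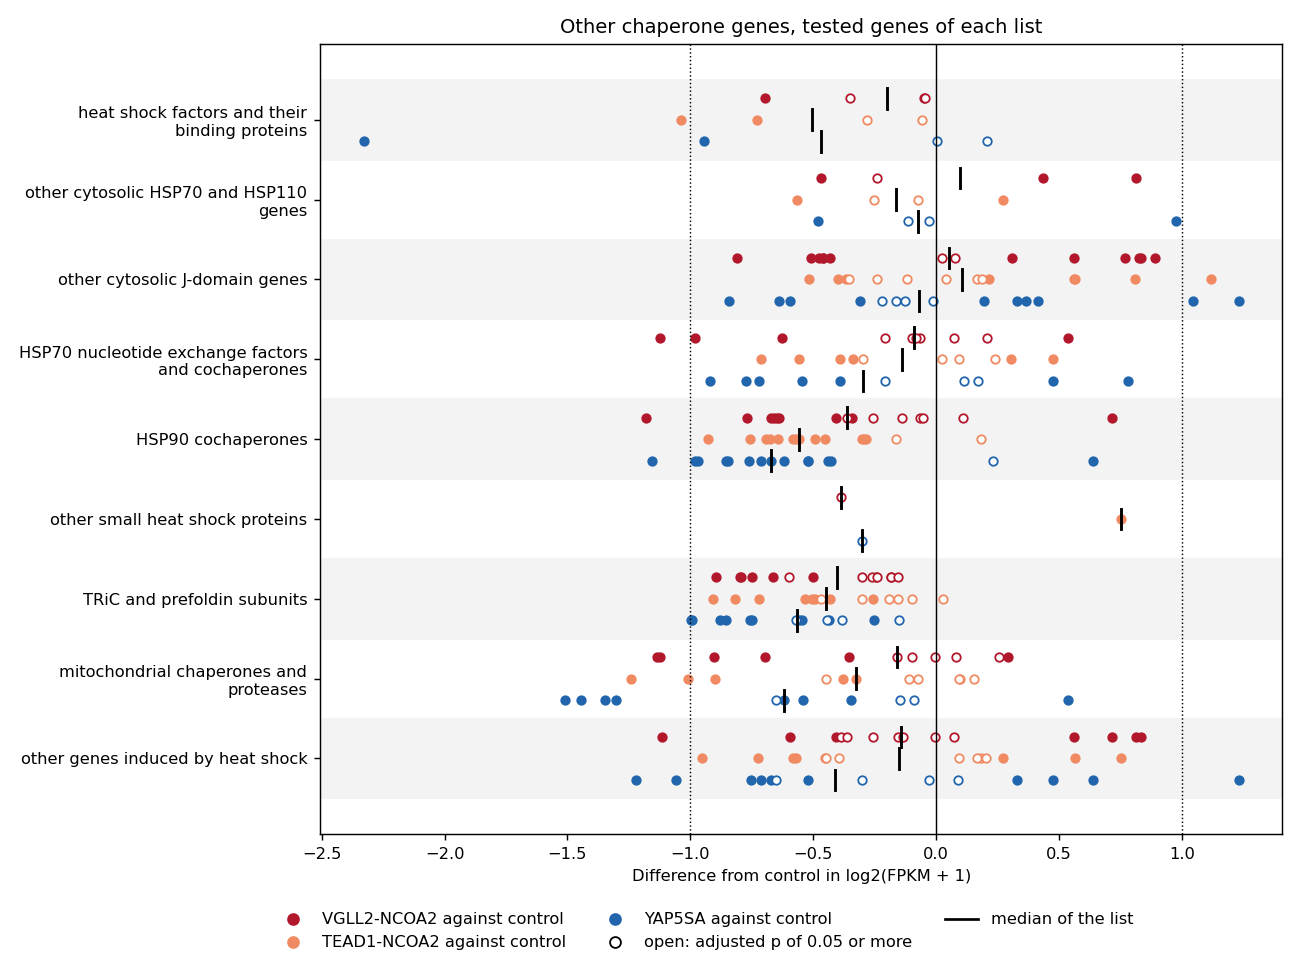
Difference from control in log2(FPKM + 1) (horizontal axis) of every tested gene of the 9 lists of related chaperone genes (rows), by plasmid, filled where the adjusted p was under 0.05, with the list median as a black bar. HSP90 cochaperones and TRiC and prefoldin subunits lie mostly left of 0, while J-domain genes spread on both sides.

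J-domain genes went both ways. Of 14 tested of 15 listed, 6 rose and 6 fell with VGLL2-NCOA2, 5 rose and 3 fell with TEAD1-NCOA2, and 6 rose and 4 fell with YAP5SA, while on the TPM scale 8, 9 and 11 passed higher and 0 lower. DNAJB4, a close relative of DNAJB1, averaged 8.19, 6.62 and 11.1 FPKM with VGLL2-NCOA2, TEAD1-NCOA2 and YAP5SA, against 4.17 FPKM in control (0.83, 0.57 and 1.23), and DNAJC13, an endosomal J-domain protein, averaged 7.83, 9.32 and 8.97, against 3.77. Both kept their direction on the TPM scale and after the length and GC correction. Of 10 HSP70 exchange factors and cochaperones, 3, 4 and 5 fell and 1, 2 and 2 rose with the 3 plasmids in the same order, while on the TPM scale 7, 5 and 6 were higher and 2, 0 and 0 lower. HSPBP1, which acts on HSP70 as an exchange factor, averaged 16.1, 21.8 and 21.7 FPKM, against 36.4 FPKM in control (-1.12, -0.71 and -0.72), and on the TPM scale passed only with VGLL2-NCOA2.

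The other HSP70 and HSP110 genes, 4 tested of 6, had 2 higher and 1 lower with VGLL2-NCOA2 and 1 higher and 1 lower with each of TEAD1-NCOA2 and YAP5SA. In TPM 2, 1 and 3 of them passed higher and 0 lower with VGLL2-NCOA2, TEAD1-NCOA2 and YAP5SA. The most abundant, HSPA4, averaged 54.7, 54.4 and 59.9 FPKM, against 65.0 FPKM in control, and did not pass. After the length and GC correction HSPA4 passed lower with VGLL2-NCOA2 (-0.37) and TEAD1-NCOA2 (-0.40), and on the TPM scale it passed higher with YAP5SA (0.69). HSPA14 averaged 14.3, 13.3 and 14.3, against 20.2, and passed lower with each plasmid. Its TPM differences were 0.11, -0.08 and 0.30, and none passed. HSPA14 has 2 overlapping rows of 1 symbol, so its value is uncertain. Of the heat shock factors and their binding proteins, 4 of 5 were tested, and 1, 2 and 2 fell and 0 rose with VGLL2-NCOA2, TEAD1-NCOA2 and YAP5SA. On the TPM scale 1, 1 and 2 of them passed higher and 0, 1 and 1 lower. HSBP1L1, named for its likeness to a binding protein of HSF1, averaged 4.23, 3.11 and 0.679 FPKM, against 7.57 FPKM in control (-0.69, -1.04 and -2.33). Its TPM differences were -0.20, -0.69 and -2.30, and that of VGLL2-NCOA2 did not pass (limma, adjusted p = 0.473). Only HSPB8 of 6 other small heat shock proteins passed the filter on low values, and it was 5.84 FPKM with TEAD1-NCOA2, against 3.08 FPKM in control (0.75 ± 0.21, adjusted p = 0.0138). HSPB6 averaged 0.179, 0.265 and 0.774 FPKM with VGLL2-NCOA2, TEAD1-NCOA2 and YAP5SA, against 0.191 FPKM in control, and was not tested. Its YAP5SA libraries (0.477 to 1.09 FPKM) lay above its control libraries (0.0864 to 0.347 FPKM). YAP5SA libraries also listed 30893 to 31160 genes above 0, against 20762 to 23566 in control libraries. Values this low may therefore not be comparable between these groups.

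Of 16 other genes that heat shock induces, 14 were tested, and 4 rose and 3 fell with VGLL2-NCOA2, 3 rose and 5 fell with TEAD1-NCOA2, and 4 rose and 6 fell with YAP5SA. With VGLL2-NCOA2 those counts are near the shares over all genes. UBB, which supplies ubiquitin under stress, was among those that fell. UBB averaged 202, 186 and 132 FPKM with VGLL2-NCOA2, TEAD1-NCOA2 and YAP5SA, against 307 FPKM in control. On the TPM scale UBB passed only with YAP5SA (-0.42), and the list had 8, 7 and 7 higher and 1 lower with each plasmid. DNAJB4 is also on this list.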

How the data were processed

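RNA was extracted from HEK293T cells with RNeasy, libraries were made with the SMARTER mRNA-Seq kit and sequenced as paired 150-base reads. The authors deposited FPKM values per gene, 1 table per group, with gene lengths. Aligner, counter and strand setting: not given in the sources used here. Mouse builds (GRCm38, mm10) stand in the submitters' processing notes, while all 58735 gene positions match human GENCODE release 29. Tables may have been normalized separately, and the YAP5SA values did not give whole fragments.

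A gene was tested if 3 or more of the 12 libraries had 1 FPKM or more (15954 genes). Since the unit is FPKM and not counts, log2(FPKM + 1) was fitted with limma 3.58.1 (trend, R 4.3.3) over all libraries, with no block. Alternatives were other pseudocounts and filters, TPM, quantile normalization, a length and GC correction, limma-voom on recovered fragments, merged copies and pseudogenes, and libraries left out.

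The members, lists and rules were chosen with earlier results of these data known. From each list, up to 3 called genes with the largest change are named; lists without a call give their 2 most abundant genes. Some genes that this rule names are not reported here.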

Additional observations from a re-analysis of the deposited data

How the results depend on the processing

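The number of the 10 genes called was 2 for VGLL2-NCOA2 against control, and 1 with no filter, on the TPM scale, after quantile normalization and with limma-voom, 0 with the length and GC correction (also with a replicate block), and 1 to 2 with 1 library left out. For TEAD1-NCOA2 it was 1, and 0 after quantile normalization and with the length and GC correction (also with the block), 2 with limma-voom and 0 to 1 with 1 library left out. For YAP5SA it was 3, and 1 on the TPM scale, 0 after quantile normalization and 2 to 3 with 1 library left out. On the TPM scale the 1 gene called with each plasmid was HSPH1, and it was higher, so no lower call was kept there. For VGLL2-NCOA2 against TEAD1-NCOA2 it was 0 throughout, and against YAP5SA 0, and 0 to 1 with 1 library left out. For TEAD1-NCOA2 against YAP5SA it was 1, and 0 on the TPM scale, after quantile normalization, with the length and GC correction (also with the block) and without control 3 and YAP5SA 3, and 0 to 1 with 1 library left out. At an adjusted p alone, VGLL2-NCOA2 against control had 6 genes, and 2 to 7 with 1 library left out. On the TPM scale it also had 6, of which only HSF1 was lower. TEAD1-NCOA2 against control had 5, and 3 on the TPM scale and 3 to 6 with 1 library left out. The 3 on the TPM scale, HSPA8, HSPH1 and DNAJB1, were all higher. YAP5SA against control had 5, and 7 on the TPM scale or with the length and GC correction, and 5 to 6 with 1 library left out. Of the 7 on the TPM scale only HSPB1 was lower. Of all genes, 51.8%, 38.5% and 60.5% passed higher on that scale with VGLL2-NCOA2, TEAD1-NCOA2 and YAP5SA. VGLL2-NCOA2 against TEAD1-NCOA2 had 1, and 0 with no filter, 3 with the length and GC correction or with the compared groups alone, 2 with limma-voom or without control 3 and YAP5SA 3, and 0 to 2 with 1 library left out. VGLL2-NCOA2 against YAP5SA had 4, and 2 on the TPM scale, after quantile normalization or with the compared groups alone. TEAD1-NCOA2 against YAP5SA had 3, and 1 after quantile normalization. The cause was not tested.

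Differences that changed direction and passed under at least 1 of the settings compared were, for HSP90AB1 with VGLL2-NCOA2, 0.20 on the TPM scale and 0.58 after quantile normalization, and for HSPD1 0.43 after quantile normalization. With TEAD1-NCOA2 they were 0.49 (TPM), 0.25 (quantile), 0.19 (length and GC correction, with or without the block) and 0.24 (limma-voom) for DNAJB1, and 0.40 (quantile) for HSPD1. With YAP5SA they were 0.38 (TPM) for HSPA1B, 0.69 (TPM) and 0.86 (quantile) for HSPA8, 0.66 (TPM) and 0.16 (length and GC correction, with or without the block) for DNAJB1, 0.54 (TPM) and 0.77 (quantile) for HSP90AA1, and 0.22 (quantile) for HSP90AB1. For TEAD1-NCOA2 against YAP5SA, HSP90AB1 was -0.0198 (quantile). Over 1452 values of the 10 genes, 1324 kept their side of the threshold, 54 of them with a change of sign that passed under neither setting (such as HSPD1 with the fusions and HSP90AB1 with TEAD1-NCOA2 on the TPM scale), 78 kept their direction and no longer passed, 31 newly passed and 19 turned with a pass on either side. The summed HSPA1A and HSPA1B difference with 1 library left out was -2.30 to 2.14 FPKM for VGLL2-NCOA2, -25.8 to -20.9 for TEAD1-NCOA2 and -16.2 to -3.43 for YAP5SA against control, 21.1 to 25.9 for VGLL2-NCOA2 against TEAD1-NCOA2, 3.60 to 16.4 for VGLL2-NCOA2 and -19.4 to -6.60 for TEAD1-NCOA2 against YAP5SA.

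The sources used here do not say whether the replicate numbers pair the libraries. Over 18 pairs of equal number, r was -0.0488 to 0.270, and 3 exceeded 0.1. Pairs of unequal number were not compared, so pairing is not excluded. The replicate block alone changed no member's call in 60 comparisons, with 6, 5 and 5 members still passing against control. The depth of the YAP5SA libraries is unknown, and HSPA1A rests on few fragments.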
